A study of Mus musculus with 16 samples.

Results

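The H3K27ac regions present at E12.0 only were genomic intervals where histone H3 acetylated at the lysine of the H3K27ac mark was found in both E12.0 libraries and in neither E13.5 library of progenitors of the mouse organ of Corti, the hearing epithelium of the cochlea. They were obtained by merging all intervals of 4 deposited peak lists that overlapped by 1 bp or more, and keeping the merged regions held by both E12.0 lists and by neither E13.5 list. Of 267936 merged regions, 2351 met this rule. The regions were thus chosen by the H3K27ac peak calls themselves, and their H3K27ac values below are descriptions without a test. The E13.5 cells were sorted by flow cytometry for GFP under p27, and the E12.0 cells for GFP under Sox2, so the age and the sorting reporter changed together and cannot be told apart. H3K27ac was mapped by CUT&RUN, which cuts and releases the chromatin around an antibody-bound protein, in 2 E13.5 and 2 E12.0 libraries. Open chromatin was mapped by ATAC-seq in 3 E13.5 and 3 E12.0 libraries, RNA was sequenced in 2 E13.5 and 2 E12.0 libraries, and Tead proteins were mapped with a pan-Tead antibody by CUT&RUN in 2 E12.0 libraries. Nothing in the labels ties the libraries of a group to different litters or animals; the p-values therefore reflect the scatter among these particular samples, which may be technical.

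Acetylation of this lysine is written by the acetyltransferases p300 and CBP and marks active enhancers and promoters. It is removed by class I histone deacetylases, and the same residue can instead carry the methyl mark of Polycomb repressive complex 2, which the acetyl group excludes. In the cochlea, Sox2 marks the prosensory domain that gives rise to hair cells and supporting cells, and p27 (Cdkn1b) is a cell cycle inhibitor that comes up as these progenitors stop dividing. Tead proteins are the DNA-binding partners of the co-activator Yap, which drives growth of progenitors.

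The H3K27ac libraries did not separate cleanly by stage. The E13.5 lists held 118017 and 76022 peaks and the E12.0 lists 64887 and 92839, of which 59.4% and 26.3% at E13.5 and 73.5% and 15.9% at E12.0 had a −log10 q of 2 or more. Most merged regions were held by a single list. Replicate 1 of E13.5 and replicate 1 of E12.0 alone shared 13954 regions, more than the 3743 held by the E13.5 pair only and the 2351 held by the E12.0 pair only. E12.0 replicate 2 alone shared 4984 regions with E13.5 replicate 1 and 3224 with E13.5 replicate 2, also more than the E12.0 pair. E12.0 replicate 1 and E13.5 replicate 2 alone shared fewer, 1404. E12.0 replicate 1 was the only H3K27ac library made with the KAPA HTP kit; the other 3 were made with the Accel 2S Plus kit and molecular identifiers. With the same rule on 3 lists, the count of E12.0-only regions was 10411 without E13.5 replicate 1 and 2752 without E13.5 replicate 2. It was 68056 without E12.0 replicate 1 and 30272 without E12.0 replicate 2. Leaving out a list relaxes the rule, so the direction of these rises was fixed, but their size was not.

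**Figure D1:**
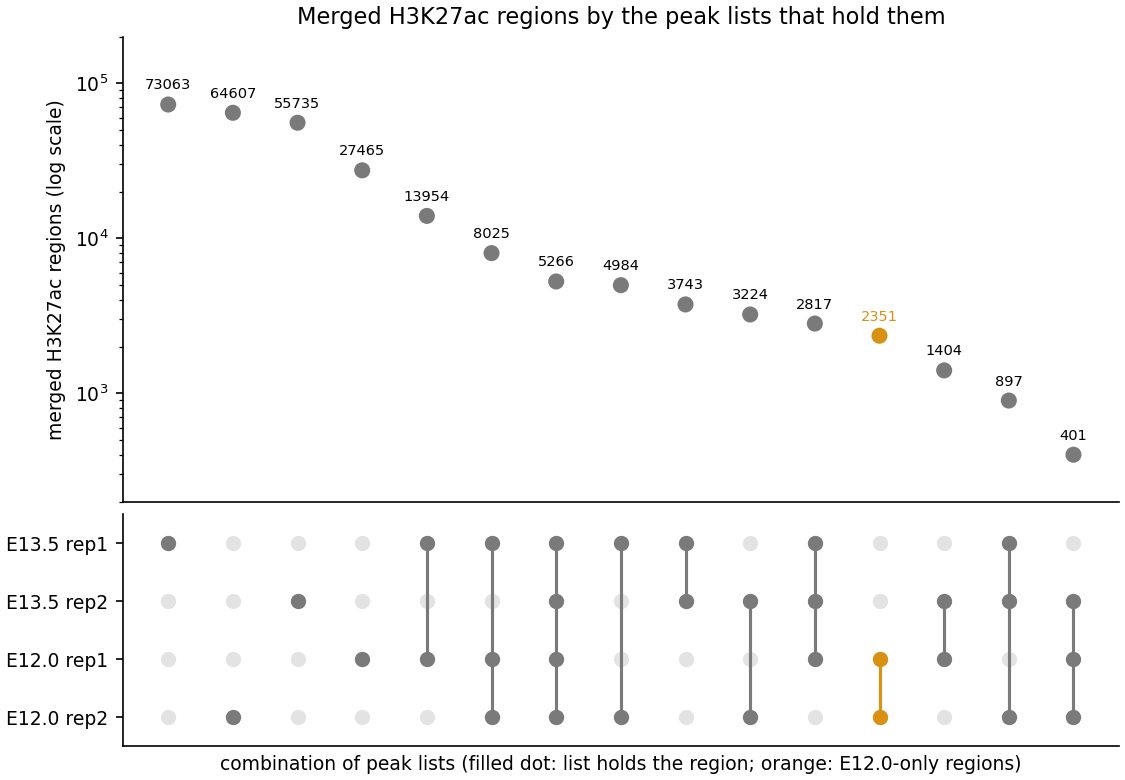
Number of merged H3K27ac regions (log scale) for each combination of peak lists that held them, with filled dots naming the lists. The 2351 regions of the E12.0 pair (orange) were fewer than the 13954 shared by replicate 1 of both stages alone, and fewer than the 5266 held by all 4 lists. They were also fewer than the 4984 and 3224 that E12.0 replicate 2 alone shared with E13.5 replicates 1 and 2, but more than the 1404 of E12.0 replicate 1 and E13.5 replicate 2.

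The E12.0-only regions were short and of modest height, as the values that chose them show. Their median width was 458 bp, against 410 bp for the 3743 E13.5-only regions and 1262 bp for the 5266 regions of all 4 lists. The authors' fold over local background, a value of each peak within its own list, had a median of 2.80 in E12.0 replicate 1 (range 1.71 to 5.86) and 3.02 in E12.0 replicate 2 (range 2.16 to 5.32). Regions of all 4 lists had medians of 4.35 and 3.50 in the same libraries. The fold took few distinct values in replicate 2: 1325 of the 2351 regions shared the 10 commonest values of that list. A peak with a −log10 q of 2 or more was present in both E12.0 lists at 303 of the regions and in neither at 562.

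The edge of the rule was close for many regions. The smallest gap between an E12.0-only region and an E13.5 peak was 0 bp, 226 regions had an E13.5 peak within 100 bp and 627 within 500 bp, and the median gap was 1892 bp. Some regions named below were this close, with a gap of 8 bp at Fgf10, 12 bp at Eed and 58 bp at Oxa1l and a Mycn region. The gap was 72 bp at Slc1a3 and 76 bp at Kdm1a. Just outside the rule lay 8426 regions held by both E12.0 lists and 1 E13.5 list, in 265 of which the E13.5 interval covered under 100 bp. The smaller of the 2 E12.0 folds had a median of 2.69 inside the rule and 3.09 in these regions just outside it. The 2 E12.0 summits of a region lay a median of 129 bp apart, and within 100 bp of each other in 41.7% of the regions.

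The regions were spread over 20 chromosomes, with 16 on X and none on Y, and lay mostly inside or near protein-coding genes and away from promoters. A total of 1373 (58.4%) overlapped the span of a protein-coding gene and 1798 lay within 50 kb of one. Only 59 (2.51%) overlapped a promoter window of 250 bp before to 50 bp after a RefSeq gene start, against 69 (1.84%) of the E13.5-only regions and 1485 (28.2%) of the regions of all 4 lists. The 1445 genes nearest a region had a median span of 95.8 kb, against 91.0 kb for the genes of E13.5-only regions, 40.9 kb for those of all 4 lists and 17.2 kb for all 21887 protein-coding genes. Naming genes by the nearest span favours long genes wherever intervals lie, so the contrast with all genes says nothing particular about these regions. The share inside gene spans likewise has no background share beside it. Of 1005 microRNA hairpins in the RefSeq table, 2 were overlapped, among them Mir148b on chromosome 15, which lies in the Copz1 locus.

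Promoters under the regions are shown because a reference sequence was used for these windows only, and because they let the covered bases be read directly. The 69 promoter windows (of 60 genes) under an E12.0-only region had a median GC content of 58.0% and a median of 13 CpG dinucleotides in 300 bp. The windows under E13.5-only regions had 59.8% and 19 CpGs, those under regions of all 4 lists 59.7% and 20, and all 21263 windows of protein-coding genes 56.3% and 13. The Tead core motif GGAATG was found on either strand in 14.5% of the windows under E12.0-only regions and in 13.6% of all windows, and CCAAT in 31.9% and 38.2%. Below are RefSeq promoters (build GRCm38.p6, each 5′ to 3′ on the strand of its gene), with the bases inside the E12.0-only region in capitals. They belong to Vash2 (chr1:190979247-190979546, minus strand), encoding a tubulin carboxypeptidase, Ipmk (chr10:71347513-71347812, plus strand), encoding inositol polyphosphate multikinase, Def6 (chr17:28207528-28207827, plus strand), encoding a guanine nucleotide exchange factor for Rac, and Dcx (chrX:143933075-143933374, minus strand), encoding the microtubule-associated protein doublecortin of young neurons.
Vash2: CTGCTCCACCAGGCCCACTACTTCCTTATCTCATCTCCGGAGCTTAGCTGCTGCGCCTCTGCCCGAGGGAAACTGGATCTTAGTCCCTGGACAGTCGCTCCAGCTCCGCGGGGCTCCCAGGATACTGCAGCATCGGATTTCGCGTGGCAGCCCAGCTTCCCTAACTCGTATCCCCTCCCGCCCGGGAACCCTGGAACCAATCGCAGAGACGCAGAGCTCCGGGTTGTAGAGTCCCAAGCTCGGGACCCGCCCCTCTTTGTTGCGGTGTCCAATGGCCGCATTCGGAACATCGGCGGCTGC
Ipmk: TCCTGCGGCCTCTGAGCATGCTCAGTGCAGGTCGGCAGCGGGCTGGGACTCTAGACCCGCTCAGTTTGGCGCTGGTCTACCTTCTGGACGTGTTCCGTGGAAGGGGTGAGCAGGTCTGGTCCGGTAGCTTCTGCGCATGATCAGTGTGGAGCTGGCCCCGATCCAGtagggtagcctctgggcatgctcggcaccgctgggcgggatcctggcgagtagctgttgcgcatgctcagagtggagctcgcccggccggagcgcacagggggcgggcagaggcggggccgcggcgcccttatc
Def6: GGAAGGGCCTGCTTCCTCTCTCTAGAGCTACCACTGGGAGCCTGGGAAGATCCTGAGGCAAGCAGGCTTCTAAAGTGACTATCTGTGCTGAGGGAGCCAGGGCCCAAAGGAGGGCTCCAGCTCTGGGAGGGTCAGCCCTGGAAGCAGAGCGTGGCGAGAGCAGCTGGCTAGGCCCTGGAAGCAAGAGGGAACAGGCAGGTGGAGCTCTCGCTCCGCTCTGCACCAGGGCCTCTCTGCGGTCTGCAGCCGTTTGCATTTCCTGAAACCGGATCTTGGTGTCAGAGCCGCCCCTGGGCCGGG
Dcx: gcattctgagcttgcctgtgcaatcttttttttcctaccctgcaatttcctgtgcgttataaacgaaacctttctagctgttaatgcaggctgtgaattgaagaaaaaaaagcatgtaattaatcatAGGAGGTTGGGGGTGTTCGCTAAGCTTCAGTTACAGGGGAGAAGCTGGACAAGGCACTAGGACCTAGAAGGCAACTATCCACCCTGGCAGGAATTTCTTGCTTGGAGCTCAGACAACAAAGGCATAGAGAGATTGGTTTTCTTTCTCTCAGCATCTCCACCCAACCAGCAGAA
The regions covered all 300 bases of the Vash2 and Def6 windows, 166 bases upstream of the start at Ipmk and the last 173 bases of the Dcx window. Vash2 and Ipmk were rich in CpG (22 and 24 in the window), Def6 had 9 and Dcx 3. None of these windows held GGAATG on either strand.

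More of the acetylated regions had ATAC peaks at E13.5 than at E12.0. ATAC peaks of all 3 E13.5 libraries covered 1038 regions (44.2%), and those of all 3 E12.0 libraries 272 (11.6%). All 6 libraries covered 263 regions. Another 219 had a peak in each E13.5 library but none at E12.0, and the opposite class, with a peak in each E12.0 library but none at E13.5, was empty. More E13.5 than E12.0 libraries had a peak at 1181 regions, fewer at 105 and as many at 1065, of which 717 (30.5% of all) had no ATAC peak in any of the 6 libraries.

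**Figure D2:**
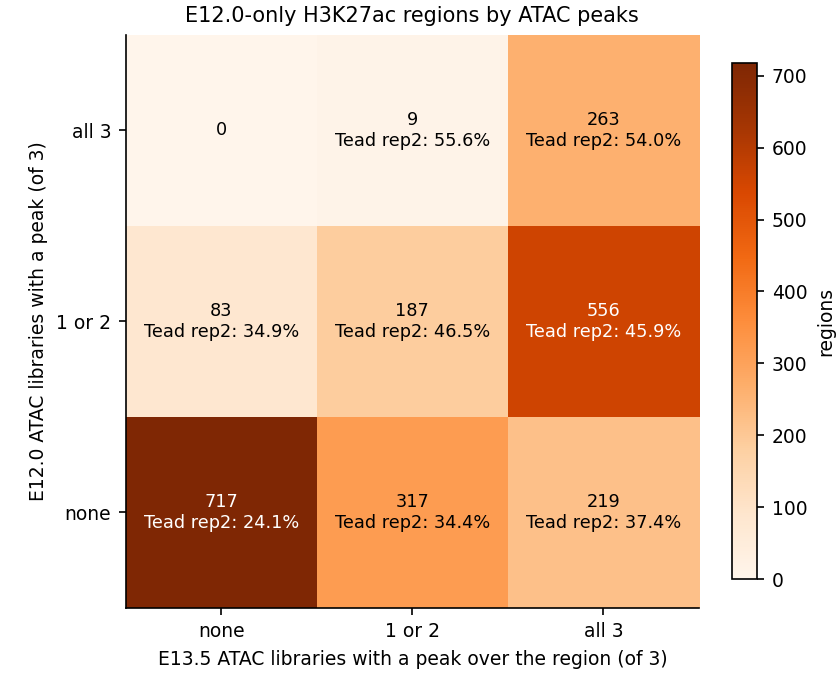
E12.0-only regions by the number of E13.5 (horizontal) and E12.0 (vertical) ATAC libraries with a peak over them, with the share overlapped by a peak of Tead replicate 2. The 717 regions without any ATAC peak form the largest cell, and the cell with peaks in each E12.0 but not any E13.5 library is empty.

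By library the share covered was 54.5%, 52.8% and 57.7% at E13.5, against 23.9%, 37.1% and 21.7% at E12.0. The ATAC lists differed in length in the same direction, with 208061 to 226496 peaks at E13.5 and 112563 to 143742 at E12.0 after leaving out unplaced contigs. Some intervals were listed more than once: distinct intervals numbered 151927 to 161637 at E13.5 and 99201 to 119912 at E12.0. With each list limited to its 112563 strongest peaks, all 3 E13.5 libraries covered 622 regions (26.5%) and all 3 E12.0 libraries 255 (10.8%). This limit evens out the number of peaks, not their width. Median peak width in the full lists was 403 to 431 bp at E13.5 and 211 to 269 bp at E12.0. The part of peak width in the difference between stages was not tested. The E12.0 count of 272 was 426 without replicate 3, but leaving out a library can only raise a count that needs a peak in each. The other classes kept the same order of stages: with lists of equal length, E13.5-only regions were covered in 22.3% by all E13.5 and 7.61% by all E12.0 libraries, and regions of all 4 lists in 90.0% and 72.7%. The E12.0-only regions shared this order of the stages with both other kinds of region, and the shares are descriptions, since regions are not replicates.

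Width and position varied with openness. Regions open in all 6 libraries had a median width of 518 bp and a median smaller fold of 2.92, and 15.2% of them (40 of 263) lay over a promoter window. Regions without any ATAC peak had a median width of 396 bp and a median smaller fold of 2.63, and 1 of the 717 lay over a promoter window. Among regions of 400 to 700 bp, all 3 E13.5 ATAC libraries covered 45.3% of 1117 E12.0-only regions, 32.8% of 1698 E13.5-only regions and 80.9% of 282 regions of all 4 lists.

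Each Tead library overlapped a larger share of E12.0-only than of E13.5-only regions, a description over regions without a test. Tead replicate 2, with 58410 peaks, overlapped 882 (37.5%) of the E12.0-only regions, against 11.8% of the E13.5-only regions and 91.2% of the regions of all 4 lists. Tead replicate 1, with 18250 peaks, overlapped 61 (2.59%) of the E12.0-only regions, against 1.66% and 9.53%. Both libraries overlapped 32 regions (1.36%). With 1 library left out, this count becomes that of the other library, 882 or 61. The same E12.0-only regions moved by 10 kb to either side were overlapped in 4.70% by replicate 2 and 0.829% by replicate 1, and E13.5-only regions in 2.78% and 0.681%. At matched widths of 400 to 700 bp, Tead replicate 2 overlapped 37.3% of E12.0-only, 14.1% of E13.5-only and 62.8% of all-4-list regions. The Tead libraries and the 2 H3K27ac lists that chose the regions were all made from E12.0 cells, and E13.5 Tead was not analysed here; whether the stage of the cells or the shared processing set the difference was not tested. Within the E12.0-only regions the Tead replicate 2 share was 54.0% where all 6 ATAC libraries had a peak and 24.1% where none had. These groups also differed in median width, 518 and 396 bp. Over all E12.0-only regions the share rose with width, from 23.7% under 400 bp to 37.3% at 400 to 700 bp and 69.0% from 700 bp. The part of width in the contrast was not tested.

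**Figure D3:**
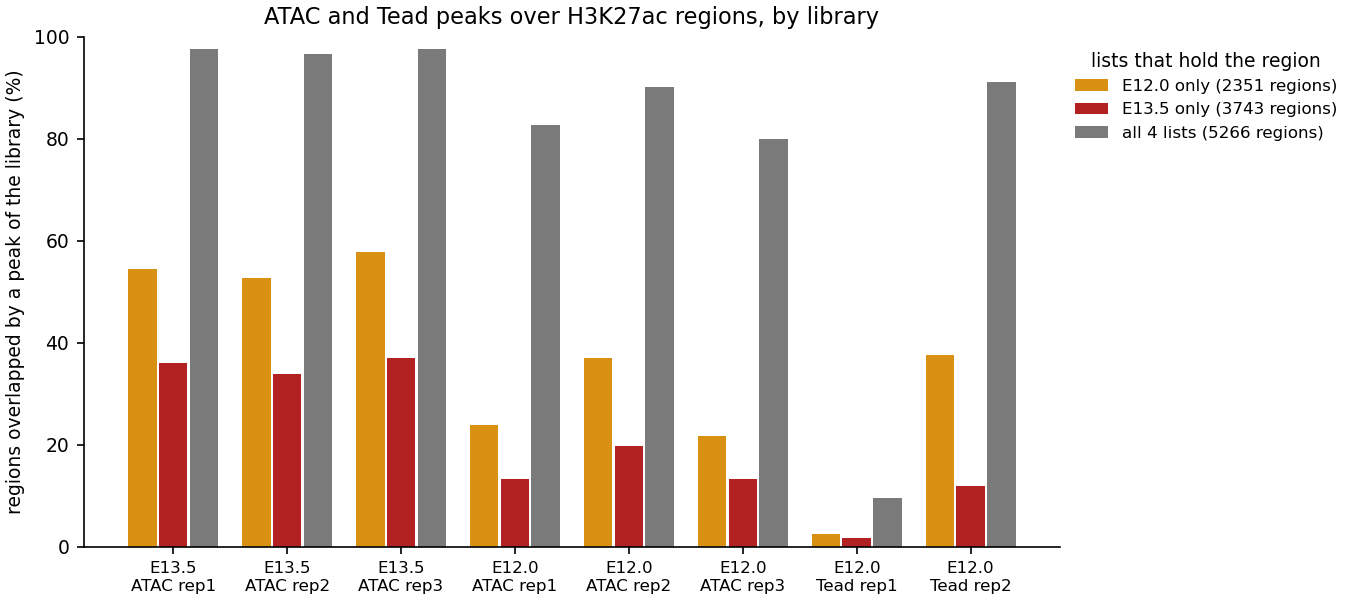
Share of H3K27ac regions overlapped by a peak of each ATAC and Tead library, for E12.0-only regions (orange), E13.5-only regions (red) and regions of all 4 lists (grey). In each of the 8 libraries the E12.0-only bar lies above the E13.5-only bar and below the bar of all 4 lists.

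The strongest region by the smaller E12.0 fold (5.41 in replicate 1 and 4.58 in replicate 2) was chr1:133500414-133501080, 75955 bp from Sox13, a SoxD transcription factor gene. It had ATAC peaks in each E13.5 library, with folds of 3.30, 3.27 and 3.56, but in none at E12.0. The next regions lay in Pdzk1 (chr3:96838067-96838609), a scaffold protein gene, and in Stx17 (chr4:48133432-48133932), encoding an autophagosomal syntaxin. The fourth, chr8:33498487-33499499, 17190 bp from the meiotic gene Tex15, again had ATAC peaks in each E13.5 library (folds of 8.95, 6.18 and 7.30) but in none at E12.0. The rest of the 10 strongest lay in or near Jarid2, Ulk2, Oxa1l, Slc35d1, Sptb and Cela2a. All but the Stx17 region had a peak in each E13.5 ATAC library, and 3 of the 10, at Jarid2, Slc35d1 and Sptb, in all 6.

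The region inside Jarid2, a DNA-binding cofactor of Polycomb repressive complex 2, had higher ATAC folds at E12.0. At chr13:44869579-44869976 the authors' ATAC folds were 6.57, 8.28 and 5.51 at E13.5, against 18.1, 17.7 and 14.9 at E12.0. The Tead folds there were 9.91 in replicate 1 and 6.26 in replicate 2, and the H3K27ac folds at E12.0 were 4.75 and 4.29. All 3 E12.0 ATAC folds lay above all 3 E13.5 folds, although a fold is scaled within its own list. Jarid2 RNA was at 114 and 94.9 CPM (counts scaled to library size, with TMM factors) at E13.5, against 113 and 120 CPM at E12.0, values that overlap.

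Among the other regions overlapped by both Tead libraries were chr14:110739783-110740455, 6883 bp from Slitrk6, a synaptic adhesion gene needed for innervation of the inner ear, and chr11:114823347-114824117 near Gpr142. Both had ATAC peaks in all 3 E13.5 libraries. A further region, chr14:24930117-24930877, 433157 bp from the nearest gene Rps24, had ATAC peaks in 2 E12.0 libraries and in none at E13.5. The region chr11:3101093-3102533, 1441 bp wide, lay 29317 bp from Sfi1, encoding a centrosomal protein, and had no ATAC peak in any library. Slitrk6 RNA rose, at 142 and 186 CPM at E13.5, against 29.6 and 53.1 CPM at E12.0 (log2 fold change 1.98 ± 0.32 SE, adjusted p = 0.00075). Sfi1 RNA fell, at 62.1 and 52.7 CPM at E13.5, against 123 and 158 CPM at E12.0 (log2 fold change −1.29 ± 0.26 SE, adjusted p = 0.0025), a call not made on log2(TPM + 1), where its change was −0.68. Among the strongest regions without ATAC peaks, those in Wnk1, a kinase gene of ion transport, and near Asb17 were overlapped by no Tead peak.

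RNA was used to ask whether genes nearest an E12.0-only region differed between the stages. Each region within 50 kb of a protein-coding gene was given to the nearest one, which named 1445 genes; 1188 had 1 region, 190 had 2, 49 had 3 and 18 had 4 or more. Of these genes 17 had no RNA row and 212 were below the expression filter. Of the 1216 tested, 293 (24.1%) fell and 266 (21.9%) rose at E13.5 (edgeR quasi-likelihood test, adjusted p under 0.05), against 23.5% lower and 22.4% higher (45.9% in either direction) over all 15982 genes tested. Among the 12662 tested protein-coding genes, from which the nearest genes were taken, 21.3% were lower and 23.0% higher. The shares were thus close to the background in both directions, and the median log2 fold change was −0.01, against 0.05 over all genes. Genes nearest an E13.5-only region fell in 19.2% and rose in 21.7% of 1353 cases, with a median of 0.11. The gene sets overlapped in 428 genes, 29.6% of the genes of E12.0-only regions and 24.8% of the 1729 genes of E13.5-only regions, and the difference between them was not tested.

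**Figure D4:**
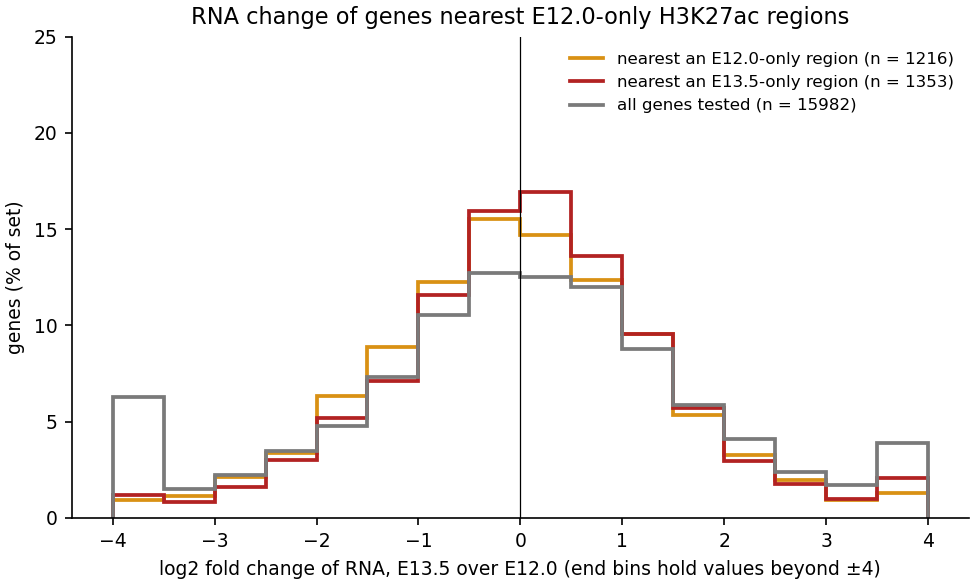
Distribution of the log2 fold change of RNA (E13.5 over E12.0) for the 1216 tested genes nearest an E12.0-only region, the 1353 nearest an E13.5-only region and all 15982 genes tested, in bins of 0.5. The 3 outlines peak in the bins on either side of 0, and the outline of all genes has the largest lowest bin (6.26% of genes, against 0.905% for the genes nearest an E12.0-only region). The lowest and highest bins also hold all values beyond −4 and 4. All genes include genes that are not protein-coding, which the sets nearest a region leave out, so the bins compare unlike sets.

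Scaling set the balance of calls. On log2(TPM + 1), where the median of all genes lay at 0.76, limma called 96 of the genes lower and 504 higher at E13.5 (7.89% and 41.4%), against 13.1% and 42.7% of all genes. With the library medians set equal, the counts were 272 lower and 241 higher. Without E12.0 replicate 1 of H3K27ac, so for regions held by E12.0 replicate 2 and neither E13.5 list, 1280 of 5835 genes were lower and 1165 higher (21.9% and 20.0%).

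Subsets of regions gave shares on either side of the background. Genes nearest a region with a Tead replicate 2 peak fell in 27.8% and rose in 19.6% of 546 cases (median −0.19), and genes nearest a region with no Tead peak fell in 21.2% and rose in 24.0% of 786 cases (median 0.08). Genes of the regions open in all 6 ATAC libraries fell in 28.9% and rose in 21.9% of 187 cases, and those of regions without ATAC peaks fell in 23.7% and rose in 24.4% of 422. Of the 50 tested genes with an E12.0-only region over a promoter, 15 (30.0%) fell and 7 rose, against 23.5% and 22.4% over all genes, but on log2(TPM + 1) 8 were lower and 20 higher. On log2(TPM + 1) the Tead replicate 2 genes were lower in 8.24% and higher in 39.6%, and those with no Tead peak in 7.51% and 43.0%. Some genes belong to several subsets, and no difference between subsets was tested.

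The 10 genes that fell most at E13.5, among those with a mean of at least 5 CPM, had log2 fold changes between −5.33 and −3.44. St3gal1 and St3gal3 encode sialyltransferases. St3gal1 was at 0.333 and 0.509 CPM at E13.5, against 11.1 and 23.4 CPM at E12.0 (log2 fold change −5.33 ± 0.67 SE, adjusted p = 0.00018). St3gal3 was at 6.10 and 4.28 CPM at E13.5, against 133 and 105 CPM at E12.0 (−4.52 ± 0.33). In both genes the stages were far apart and did not overlap. Lbh, a transcription cofactor gene of limb and heart, was at 1.76 and 1.40 CPM at E13.5, against 63.5 and 44.4 CPM at E12.0. Sod1, the cytosolic superoxide dismutase gene, was at 6.81 and 8.65 CPM at E13.5, against 240 and 159 CPM at E12.0. Antxr1, a receptor of extracellular matrix with 2 regions, was at 21.7 and 25.1 CPM at E13.5, against 287 and 367 CPM at E12.0. These 3 had log2 fold changes of −5.09, −4.69 and −3.80. The others were the RNA-binding protein gene Raly (−4.19), the kinetochore motor gene Cenpe (−3.59), the actin-bundling gene Mtss1 (−3.54), Zfp395 (−3.47) and the stem cell transcription factor gene Sall4 with 2 regions (−3.44). All 10 stayed lower in every alternative tried, including log2(TPM + 1).

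The 8 genes that rose most had log2 fold changes between 3.60 and 5.75. Ccdc171 was at 26.0 and 23.0 CPM at E13.5, against 0.550 and 0.353 CPM at E12.0 (log2 fold change 5.75 ± 0.57 SE, adjusted p = 4.3e-05). Nynrin was at 77.5 and 81.5 CPM at E13.5, against 2.20 and 2.47 CPM at E12.0 (5.08 ± 0.35). Prdm1, encoding the transcriptional repressor Blimp-1, had 2 regions and was at 36.1 and 24.9 CPM at E13.5, against 3.30 and 1.77 CPM at E12.0 (3.60 ± 0.48). In these genes too the stages did not overlap, with the higher values at E13.5. The rest were the lipoprotein receptor gene Lrp1b (4.15), the glycosyltransferase gene Galnt2 (4.12), the kinesin gene Kifc2 (3.66), the actin regulator gene Carmil1 with 2 regions (3.62) and Nckap5 (3.61). All 8 stayed higher in every alternative tried.

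Of the 5 genes with the most E12.0-only regions, 1 was called. Auts2, a transcription and Polycomb cofactor gene, had 7 regions and 208 and 138 CPM at E13.5, against 262 and 175 CPM at E12.0. Tenm3, a teneurin adhesion gene with 6 regions, fell, at 90.2 and 107 CPM at E13.5, against 232 and 277 CPM at E12.0 (−1.37 ± 0.25, adjusted p = 0.0014); on log2(TPM + 1) its change was −0.23 and not called. The glypican gene Gpc6 (−0.13), the junction scaffold gene Magi1 (−0.28) and the axon guidance gene Nav2 (0.04) had 5 regions each and did not pass the test. Of the 67 genes with 3 or more regions, 66 were tested. Among them 12 fell and 9 rose (18.2% and 13.6%, against 23.5% and 22.4% over all genes). On log2(TPM + 1) 3 were lower and 26 higher (4.55% and 39.4%, against 13.1% and 42.7% over all genes). The 67 genes had a median span of 332 kb, against 17.2 kb for all protein-coding genes, and region counts were not adjusted for gene length.

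Of the marker, pathway and chromatin genes listed for this tissue, 24 were nearest an E12.0-only region. Of the 23 tested, 8 fell and 6 rose (34.8% and 26.1%, against 23.5% and 22.4% over all genes). On log2(TPM + 1) 5 were lower and 12 higher (21.7% and 52.2%, against 13.1% and 42.7% over all genes). With library medians set equal, 7 were lower and 7 higher. The prosensory genes among them went both ways. Lfng, encoding a glycosyltransferase that modifies Notch, was at 8.002 and 6.10 CPM at E13.5, against 32.9 and 36.0 CPM at E12.0 (−2.29 ± 0.37, adjusted p = 0.00071). Isl1, a LIM homeodomain gene of prosensory and neuronal cells with 2 regions, was at 844 and 808 CPM at E13.5, against 364 and 280 CPM at E12.0 (1.36 ± 0.25, adjusted p = 0.0018). Sox9, a progenitor transcription factor gene, was at 474 and 457 CPM at E13.5, against 522 and 460 CPM at E12.0, and Fgf10 at 181 and 159 CPM at E13.5, against 165 and 159 CPM at E12.0. Neither Sox9 nor Fgf10 passed the test, but both were called higher by limma on log2(TPM + 1), with 0.76 and 0.90. Lmo4, a LIM-only gene, fell (−1.16), with −0.43 on log2(TPM + 1), and Tbx2, a T-box gene, rose (1.38).

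Of the nonsensory duct genes, Tecta rose and Otx2 fell, and the 1 supporting cell gene nearest a region, Slc1a3, rose. Tecta, encoding α-tectorin of the tectorial membrane, was at 908 and 1141 CPM at E13.5, against 90.5 and 99.2 CPM at E12.0 (3.43 ± 0.27, adjusted p = 1.5e-05). Otx2, a homeodomain gene of nonsensory inner ear epithelium, was at 5.95 and 4.41 CPM at E13.5, against 20.4 and 51.8 CPM at E12.0 (−2.80 ± 0.49, adjusted p = 0.0012). Slc1a3, the glial glutamate transporter gene, was at 445 and 493 CPM at E13.5, against 192 and 172 CPM at E12.0 (1.37 ± 0.24). The Otx2 region, chr14:48634463-48635459, was the strongest among the listed genes, with E12.0 H3K27ac folds of 3.71 and 3.77.

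**Figure D5:**
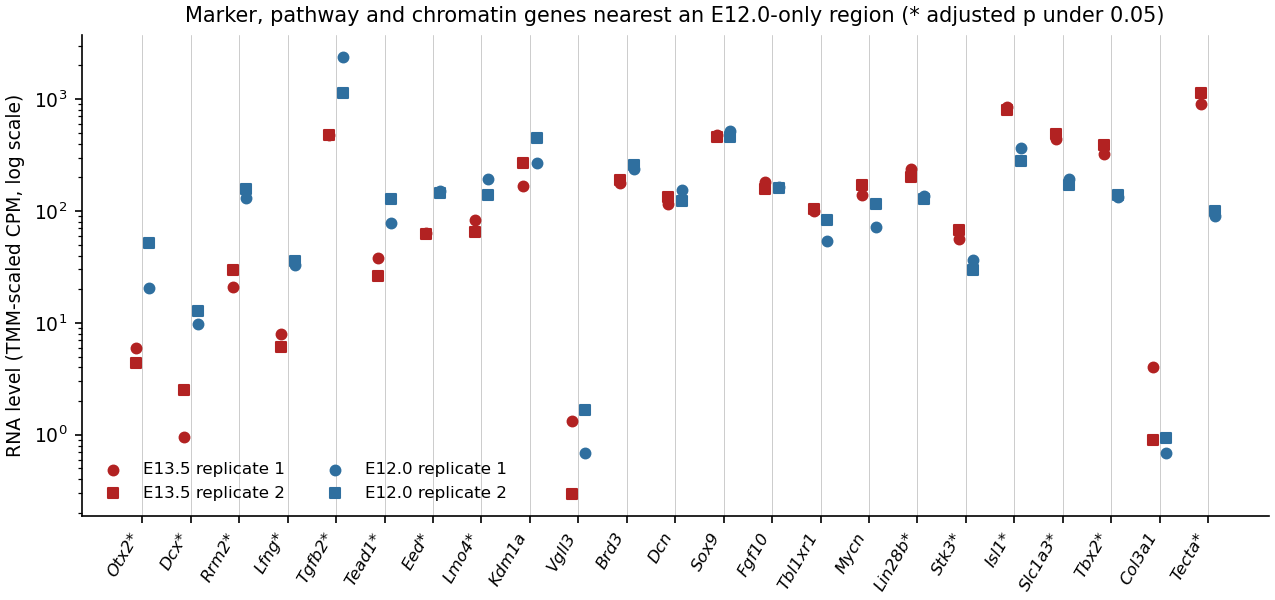
RNA level of each library (TMM-scaled CPM, log scale) for the 23 tested marker, pathway and chromatin genes nearest an E12.0-only region, ordered by log2 fold change, with E13.5 in red left of E12.0 in blue. Asterisks mark the 14 genes past an adjusted p of 0.05, 8 lower and 6 higher at E13.5.

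Some of the listed genes nearest a region came from the list for Yap and Tead, which also holds genes outside the core pathway, such as Lin28b and Mycn. Tead1 itself was at 38.0 and 26.4 CPM at E13.5, against 78.5 and 127 CPM at E12.0 (−1.68 ± 0.32, adjusted p = 0.0019). On log2(TPM + 1) its change was −0.01, and −0.76 with library medians set equal, neither past the threshold. Its region, chr7:112874697-112875543, carried a Tead peak in replicate 2 and ATAC peaks in each E13.5 library but in none at E12.0. Tgfb2, a ligand gene, was at 476 and 478 CPM at E13.5, against 2402 and 1138 CPM at E12.0 (−1.89 ± 0.35). Stk3, encoding the Hippo kinase Mst2, rose (0.91, adjusted p = 0.023), but not without E13.5 replicate 2 (adjusted p = 0.14) or E12.0 replicate 2 (adjusted p = 0.11). Lin28b, a regulator of let-7 microRNAs, rose (0.73, adjusted p = 0.028), but not without E13.5 replicate 1 (adjusted p = 0.13), E12.0 replicate 1 (adjusted p = 0.11) or E12.0 replicate 2 (adjusted p = 0.13). Mycn had 2 regions and was at 138 and 171 CPM at E13.5, against 71.8 and 117 CPM at E12.0, and did not pass the test (0.71, adjusted p = 0.065), although it did without E12.0 replicate 2 (1.10, adjusted p = 0.030) and by limma on log2(TPM + 1) (1.56, adjusted p = 0.0046). Vgll3, a cofactor gene of Tead, stayed at 1.33 and 0.297 CPM at E13.5, against 0.688 and 1.65 CPM at E12.0. Over the whole list of 30 genes, 28 were tested. Of these, 12 fell and 3 rose (42.9% and 10.7%, against 23.5% and 22.4% over all genes). On log2(TPM + 1), where 13.1% of all genes were lower and 42.7% higher, 4 were lower and 9 higher. With library medians set equal, 10 were lower and 4 higher.

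Rrm2, a ribonucleotide reductase gene of S phase, was the only cell cycle gene nearest a region and was at 21.0 and 29.8 CPM at E13.5, against 130 and 158 CPM at E12.0 (−2.50 ± 0.28, adjusted p = 9.8e-05). Of the 33 tested genes of the cell cycle list, 27 fell and 1 rose (81.8% and 3.03%, against 23.5% and 22.4% over all genes). On log2(TPM + 1), where 13.1% of all genes were lower and 42.7% higher, 18 were lower and 2 higher. Dcx, whose promoter is printed above, was low throughout, at 0.953 and 2.50 CPM at E13.5, against 9.77 and 12.7 CPM at E12.0 (−2.69 ± 0.66, adjusted p = 0.0073; −0.60 on log2(TPM + 1)). The mesenchymal genes Col3a1 and Dcn did not pass the test, and the leukocyte gene Ptprc was below the filter. Vash2 fell, at 42.0 and 45.1 CPM at E13.5, against 159 and 113 CPM at E12.0 (−1.65 ± 0.27, adjusted p = 0.00079; −0.77 and not called on log2(TPM + 1)), whereas Ipmk, Cfap74 and Def6, with regions over their promoters too, did not pass the test (−0.30, −1.43 and 0.85).

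The genes that write, read and remove the acetyl mark were measured in the same fit. Neither acetyltransferase gene passed the test. Ep300 was at 154 and 107 CPM at E13.5, against 100 and 144 CPM at E12.0, and Crebbp at 262 and 196 CPM at E13.5, against 169 and 157 CPM at E12.0. Crebbp was called higher by limma on log2(TPM + 1) (1.18, adjusted p = 0.013), but not with library medians set equal (0.43). Of 22 genes of class I deacetylases and their complexes, 6 fell and 5 rose (27.3% and 22.7%, against 23.5% and 22.4% over all genes), with a median log2 fold change of 0.08. Among those that rose, Sin3b was at the threshold (adjusted p = 0.0499) and was not called by DESeq2 or with any 1 library left out. The counts of the deacetylase list on log2(TPM + 1), where 13.1% of all genes were lower and 42.7% higher, were 1 lower and 11 higher. The median was 0.87, against 0.76 over all genes. With library medians set equal, 5 were lower and 8 higher. The list of 36 genes that set, read or remove H3K27 marks had 47.2% called, against 45.9% of all genes. Hdac2, a class I deacetylase gene, rose, at 189 and 230 CPM at E13.5, against 69.1 and 71.1 CPM at E12.0 (1.58 ± 0.25, adjusted p = 0.00061). Mbd3, a subunit gene of the NuRD complex, was at 183 and 184 CPM at E13.5, against 20.4 and 23.3 CPM at E12.0 (3.07 ± 0.26). The corepressor genes Rcor1 (−1.33) and Rcor2 (−1.54) and the NuRD genes Mta1 (−1.13) and Mta3 (−1.25) fell. Of these 4, Rcor2 was also called on log2(TPM + 1) and the other 3 were not. Mta3 was not called without E13.5 replicate 1 (adjusted p = 0.052). Hdac1 did not pass the test (0.56), but was called higher by limma on log2(TPM + 1) (1.62, adjusted p = 0.0014) and with library medians set equal (0.87, adjusted p = 0.019). Kdm1a (−0.70) and Tbl1xr1 (0.57), each nearest a region, did not pass it either. Tbl1xr1 was called higher by limma on both of these scales (adjusted p = 0.0052 and 0.032), and Kdm1a was called lower by DESeq2 (adjusted p = 0.037). Leaving out E13.5 replicate 2 (adjusted p = 0.019) or E12.0 replicate 1 (adjusted p = 0.049) brought Kdm1a past the threshold, and leaving out E12.0 replicate 2 (adjusted p = 0.0497) did so for Tbl1xr1.

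Of 6 genes of H3K27 methylation, 4 fell and 1 rose at E13.5 (23.5% and 22.4% over all genes). On log2(TPM + 1), where 13.1% of all genes were lower and 42.7% higher, 2 were lower and 1 higher. The counts were the same with library medians set equal. Ezh2, the main methyltransferase gene, was at 72.4 and 85.3 CPM at E13.5, against 324 and 266 CPM at E12.0 (−1.90 ± 0.25, adjusted p = 0.00024). Eed, a core subunit gene with a region inside it at chr7:89957542-89958099, was at 63.6 and 62.0 CPM at E13.5, against 153 and 146 CPM at E12.0 (−1.25 ± 0.24, adjusted p = 0.0019). The Ezh2 and Eed stages did not overlap, and both stayed lower on log2(TPM + 1), with −1.61 and −0.996. The Eed region lay 12 bp from an E13.5 H3K27ac peak, so it met the rule by a narrow margin. Suz12 (−1.03) and the demethylase gene Kdm6b (−0.95) fell, with 0.0072 and −0.034 on log2(TPM + 1), and Ezh1 rose (1.12). Leaving out 1 library ended the call of Suz12 (E12.0 replicate 2, adjusted p = 0.090), Kdm6b (E13.5 replicate 2, 0.074) and Ezh1 (E13.5 replicate 1, 0.074). Brd3, a reader of acetyl-lysine with a region inside it, did not pass the test (−0.42), and on log2(TPM + 1) it was called higher (0.93, limma adjusted p = 0.018).

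The sorted cells expressed the prosensory genes at both stages, with all 31 listed genes tested and a summed level of 9277 and 10247 CPM at E13.5, against 7529 and 7632 CPM at E12.0. Markers of other cells moved beside the RNA results: 13 mesenchymal genes summed to 499 and 618 CPM at E13.5, against 1443 and 1279 CPM at E12.0, and 7 glial and neural crest genes to 646 and 682 CPM at E13.5, against 1794 and 2103 CPM at E12.0. Single genes led these sums: Lum, a matrix proteoglycan gene, had 353 and 449 CPM at E13.5, against 1246 and 1098 CPM at E12.0, and Erbb3, a neuregulin receptor gene, 435 and 457 CPM at E13.5, against 1708 and 2004 CPM at E12.0. The fall of the glial and neural crest sum came from Erbb3 alone. Without Erbb3, the remaining genes of that list summed to more at E13.5 than at E12.0, the opposite direction. The 17 otic neuroblast and neuronal genes summed to 870 and 832 CPM at E13.5, against 415 and 347 CPM at E12.0, nearly all of it from Isl1, which the prosensory list also holds. The 16 neuronal genes without Isl1 summed to 26.1 and 24.2 CPM at E13.5, against 51.6 and 67.2 CPM at E12.0, the opposite direction. Of the tested genes of these lists, 2 of 7 mesenchymal genes fell, and 1 of 4 glial genes fell and 2 rose. Among the 9 neuronal genes tested, 3 fell and 1 rose. Over all genes 23.5% fell and 22.4% rose. The lists are short, and whether their shares differ from those over all genes was not tested. Tbx15, Neurod4 and Dll3 had no counts in any library. Endothelial genes summed to at most 4.40 CPM and erythroid genes to at most 1.29 CPM in any library. The mitochondrial ribosomal RNA mt-Rnr2 took 0.295% and 0.180% of the counts at E13.5, against 17.0% and 13.2% at E12.0, and the libraries held 17057751 and 19570946 counts at E13.5, against 9412326 and 9810603 at E12.0. The part of these differences in the results was not tested, and in bulk samples fewer cells of a type and less RNA per cell cannot be told apart.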

How the data were processed

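Peak lists were deposited by the authors as 1 list per library, replicates not pooled. STAR, UMI-tools and MACS2, without versions, and the builds GRCm38 and mm10 appear in the submitters' processing notes. Each peak's fold is a ratio over local background within its library and its −log10 p and −log10 q were used as deposited; the depth behind the lists is unknown. Peaks on unplaced contigs (at most 90 in an ATAC list) were left out. Regions prone to artefact signal were not filtered out here. Intervals were merged, and overlaps counted from 1 bp, in Python 3.11.15 with pandas 2.3.3. Promoter windows, gene spans and sequences came from RefSeq tables of GRCm38.p6; no genome sequence was used here.

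The RNA tables deposited by the authors hold expected counts, which are estimated counts per gene and need not be whole; they were rounded here. Which program made them is not stated in the sources used. The test was the quasi-likelihood test of edgeR 4.0.16 in R 4.3.3 on the 15982 of 48709 genes that passed filterByExpr, with TMM factors, both stages and no covariates, and Benjamini-Hochberg adjustment and a threshold of 0.05. Symbols were matched for 48349 rows. Expected counts can divide reads between near-identical copies, which makes levels of genes with such copies uncertain, and nothing used here says whether strand was counted, so antisense partners cannot be told apart. TPM was computed from the deposited effective lengths. The interval and RNA scripts were tested on simulated data. Alternatives were DESeq2 1.42.0, RLE scaling, no filter, a replicate block, limma 3.58.1 on log2(TPM + 1), leaving out each library, other peak thresholds, overlaps, list lengths and gene distances. Limma with library medians set equal, and list sums without genes shared between lists, were chosen after seeing the data.

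The members and gene lists were chosen with earlier results of these data known. Named regions were the 10 strongest by the smaller E12.0 fold, the 3 strongest of each ATAC class, and the 5 strongest with both Tead libraries or over a promoter. Named genes were the 10 lower and 8 higher with the largest change at a mean of 5 CPM or more within 50 kb, the 5 with the most regions, listed genes nearest a region and the genes that set or remove H3K27 marks. Some genes of these lists are not reported here.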

Additional observations from a re-analysis of the deposited data

How the results depend on the processing

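The count of 2351 E12.0-only regions was 305 when E12.0 peaks needed a −log10 q of 2 or more, 504 when every list did, and 2752 to 68056 with 1 library left out; it was 2363 with equal list lengths, 2166 with a 100 bp overlap and 1724 with E13.5 peaks within 500 bp counted. Regions open in all 3 E13.5 ATAC libraries numbered 622 with equal list lengths (1088 to 1156 with 1 library left out), and those open in all 3 E12.0 libraries 151 at a −log10 q of 2 or more (300 to 426 with 1 library left out). Regions with both Tead libraries numbered 10 at a −log10 q of 2 or more, and 61 to 882 with 1 library left out. Genes nearest a region were 96 lower and 504 higher on log2(TPM + 1), 54 and 45 for regions with a −log10 q of 2 or more at E12.0, 1280 and 1165 without E12.0 replicate 1 of H3K27ac, and 223 to 253 and 179 to 219 with 1 RNA library left out. Of the other alternatives, DESeq2 gave 318 and 261. Counts of regions can only rise with 1 peak list left out, since fewer lists must meet the rule. The cause of the other shifts was not tested.

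Replicate numbers did not pair the RNA libraries (correlation of deviations 0.0082); with the replicate block 292 genes fell and 259 rose, and 71 of the 73 genes compared kept their call, while Kdm1a (adjusted p = 0.048) and Mycn (adjusted p = 0.038) became called. Chromatin machinery genes called numbered 12 to 19 over the alternatives, against 17 of 36 (47.2%; 45.9% over all genes). On log2(TPM + 1), 42 of the 73 kept direction and call, 11 were no longer called, 8 became called and 12 changed sign: Auts2 (0.14), Brd3 (0.93), Dcn (0.67), Gpc6 (1.05), Ipmk (0.77), Jarid2 (0.81), Magi1 (0.60), Sox9 (0.76), Stx17 (0.90), Suz12 (0.0072), Ulk2 (0.24) and Vgll3 (0.067). With library medians set equal 60 kept direction and call, and 6 changed sign: Brd3 (0.18), Gpc6 (0.30), Ipmk (0.026), Jarid2 (0.060), Sox9 (0.0093) and Stx17 (0.15). Nav2 changed sign under DESeq2 (−0.0052) and RLE scaling (−0.0052). With 1 library left out the sign changed for Dcn (−0.31 to 0.00084), Ep300 (−0.19 to 0.37), Fgf10 (−0.025 to 0.16), Nav2 (−0.32 to 0.33), Stx17 (−0.89 to 0.38) and Vgll3 (−1.95 to 0.24).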
